A study of Mus musculus with 6 samples.

Results

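The genes carried by the mitochondrial genome itself were followed in ADC106 cells, a mouse angiosarcoma line, after transfection with an miR-497 mimic or a mimic labelled NC. Angiosarcoma is a malignant tumour of vessel-lining cells. The members were all genes of the count table whose symbol starts with mt-, which gave 37 of 55401 genes: 13 protein genes, 2 rRNA genes and 22 tRNA genes. They were chosen by symbol alone, and no measured value entered the rule. The set was taken up with its summed share of counts in both groups already known, so that share is described here without a test. Tests of single genes come from one fit over all genes and were read only beside the share of all genes called in it.

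Both groups were ADC106 cells that received 12.5 nM of a short synthetic RNA duplex, and RNA was collected on day 3. The NC group is labelled WT in genotype and the other group miR-497 overexpression. Each group had 3 libraries made from poly(A)-enriched RNA, with 25777676 to 36159499 counts per library. Nothing in the labels says that the 3 libraries of a group came from separate cultures, so the p-values measure only the spread between these libraries, which may be technical. Only 1 line was used, and cells without a mimic were not analysed here. All 8 endothelial marker genes had counts, with a summed level of 8342 to 9048 CPM (counts relative to the scaled library size) with NC and 8183 to 8628 CPM with miR-497, and 6 of them were called higher with miR-497 and 1 lower (87.5%, beside 49.8% of all genes tested). The 6 leukocyte markers summed to 9.53 to 10.7 and 15.8 to 21.1 CPM, nearly all of it Cd68, with Cd3e at 0. The 4 fibroblast markers summed to 103 to 109 and 146 to 168 CPM, from Pdgfra and Col1a1, with Lum at 0. The 4 epithelial markers summed to 0.466 to 1.12 and 0.394 to 0.796 CPM. The part of these markers in the mitochondrial values was not tested.

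Mitochondria keep a small circular genome that is transcribed from both strands into long precursor RNAs. The tRNAs lie between most of the other genes, and their excision frees the rRNAs and mRNAs. The mRNAs then receive short poly(A) tails inside the organelle, which for some of them complete the stop codon. All the encoded proteins are core subunits of respiratory complexes I, III and IV and of the ATP synthase, where they work together with subunits made from nuclear genes. In the GENCODE M21 annotation of GRCm38, 28 members lie on the heavy-strand-transcribed side, annotated as plus, and 9 on the other side: mt-Nd6 and 8 tRNA genes. The mRNA ends are shown because the libraries were selected on poly(A) tails. The lengths of mt-Co3, mt-Nd4 and mt-Cytb were 1 base over a multiple of 3. The last 30 bases of each, from the M21 transcripts, are given with the terminal base or the complete stop codon in capitals, beside mt-Co1 for contrast:
mt-Co3: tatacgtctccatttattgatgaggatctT
mt-Nd4: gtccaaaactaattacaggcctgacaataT
mt-Cytb: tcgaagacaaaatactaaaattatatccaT
mt-Co1: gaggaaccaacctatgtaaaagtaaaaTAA

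The nuclear genome carries copies of mitochondrial sequence. A search of all M21 transcripts found 16 nuclear genes that matched the mitochondrial genes at 90% identity or more over at least 80% of their transcript. Of these, 7 lie side by side at chr1:24611535-24616197 (4663 bases, minus strand) and match chrM:6390-11042, a stretch of 4653 bases from inside mt-Co1 to inside mt-Nd4. The spacing between neighbouring copies was the same as on the mitochondrial genome at 5 of 6 junctions and differed by 1 base at the other (73 and 74 bases). Gm28661, Gm10925, Gm28437, Gm10222 and Gm28439 had no base that differed from mt-Co2, mt-Atp6, mt-Co3, mt-Nd4l and the first part of mt-Nd4. The differences elsewhere are shown by 30-base windows, chosen as the first aligned window with the most differing bases, with those bases in capitals. Within the gene, the windows begin at base 1 of mt-Co2, base 1063 of mt-Co1, base 931 of mt-Nd5 and base 851 of mt-Cytb.
mt-Co2: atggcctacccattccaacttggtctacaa
Gm28661: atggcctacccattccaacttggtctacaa
mt-Co1: ggaAttgttttatccaactcatcccttgac
Gm29216: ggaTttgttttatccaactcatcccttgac
mt-Nd5: ggcctGataatagtGacGctaggAataaaC
Gm4076: ggcctAataatagtAacActaggGataaaT
mt-Cytb: tcccCaaTaaaCtaggaggTgtCctagccT
Gm11410: tcccTaaCaaaAtaggaggGgtTctagccC
Over the whole alignment mt-Co2 and Gm28661 had 0 differing bases in 681, mt-Co1 and Gm29216 had 1 in 483, mt-Nd5 and Gm4076 had 45 in 954, and mt-Cytb and Gm11410 had 81 in 1142 aligned positions.

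The counts of the members fell into separate ranges along the genome. mt-Co1 (chrM:5328-6872), a catalytic subunit of complex IV, had the most counts of any gene in all 6 libraries. Per length it lay at 8173 ± 474 CPM per kilobase with NC (SD, n = 3). Next came mt-Nd1 at 2057 ± 87.8, mt-Cytb at 1537 ± 64.6 and mt-Nd2 at 1072 ± 47.0 CPM per kilobase. mt-Nd4 followed at 756 ± 24.9, mt-Nd5 at 663 ± 21.3 and mt-Nd6 at 410 ± 77.0 CPM per kilobase. Neighbouring mRNAs in this order of NC levels did not overlap. The rRNAs, mt-Rnr1 at 395 ± 23.2 and mt-Rnr2 at 360 ± 18.1 CPM per kilobase, overlapped each other, and mt-Nd6 overlapped mt-Rnr1. With miR-497 the order of the mRNAs was the same, but mt-Cytb then overlapped with both mt-Nd1 and mt-Nd2.

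The other 6 mRNAs, all inside the stretch copied on chromosome 1, had almost no counts. Levels with NC were 3.53 ± 0.629 CPM per kilobase for mt-Co2, 3.50 ± 0.387 for mt-Co3 and 2.84 ± 0.631 for mt-Atp6 (SD, n = 3), and these 3 overlapped. mt-Co1 stood 2314-fold above mt-Co2 in CPM per kilobase. mt-Atp8, mt-Nd3 and mt-Nd4l had 0 to 8 counts per library. Together the 6 genes took 0.0326% to 0.0403% of the mitochondrial counts with NC and 0.0316% to 0.0327% with miR-497, so the groups overlapped. Apart from mt-Atp6 and mt-Atp8, of the ATP synthase, these mRNAs encode subunits of the same complexes as the abundant ones. Of the 50-base words in the gene, 100% were also found in a nuclear transcript for mt-Co2, 99.9% for mt-Co3, 99.5% for mt-Atp6, 98.8% for mt-Nd4l and 98.0% for mt-Nd3. For mt-Nd4 it was 62.2%, for mt-Co1 51.1%, for mt-Nd2 8.19% and for mt-Nd5 7.61%. It was 1.04% for mt-Rnr2 and 0.0% for mt-Nd1, mt-Nd6, mt-Cytb, mt-Rnr1 and mt-Atp8. mt-Atp8 shares no such word but lies in the 233 bases between Gm28661 and Gm10925 and the first bases of the latter, a gap of equal length on both genomes with no annotated gene on chromosome 1. It also shares 43 bases with mt-Atp6. How reads that fit several places were counted was not stated, and its part in these low values was not tested. Levels of these 6 genes are therefore uncertain, as are those of mt-Co1 and mt-Nd4, whose copied parts enter their length.

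**Figure D1:**
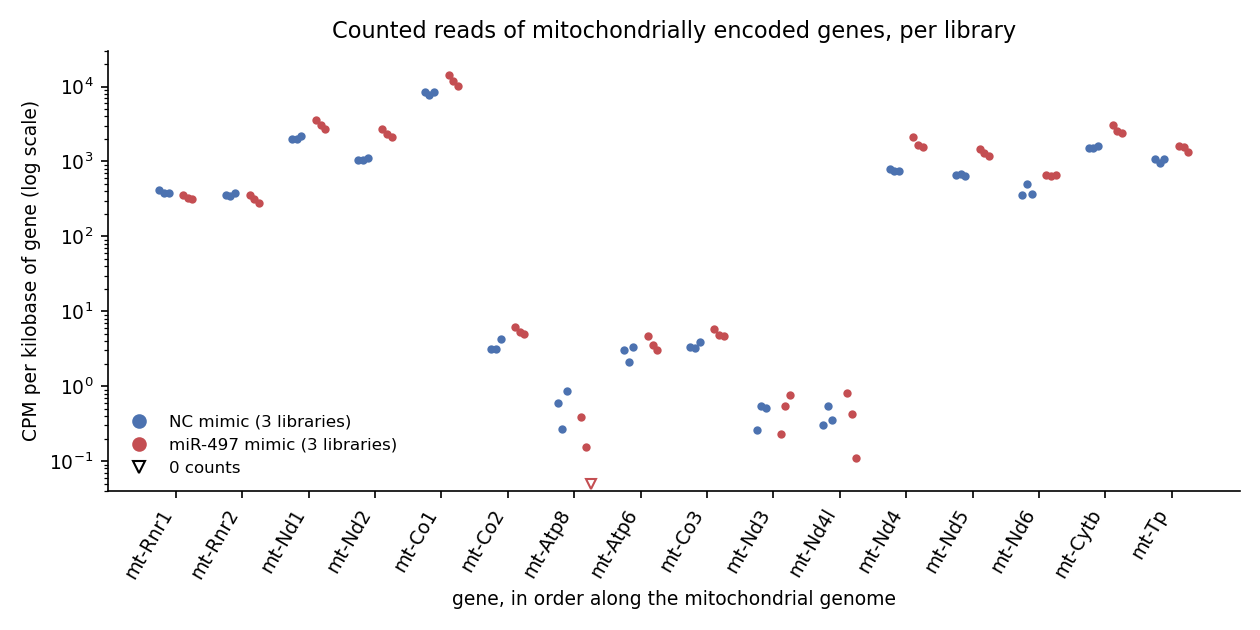
Counted reads of the 13 protein genes, both rRNA genes and mt-Tp, in CPM per kilobase on a log axis, in order along the mitochondrial genome. Each point is 1 library (blue NC, red miR-497) and an open triangle is 0 counts; the 6 genes from mt-Co2 to mt-Nd4l lie orders of magnitude below their neighbours in both groups.

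**Figure D2:**
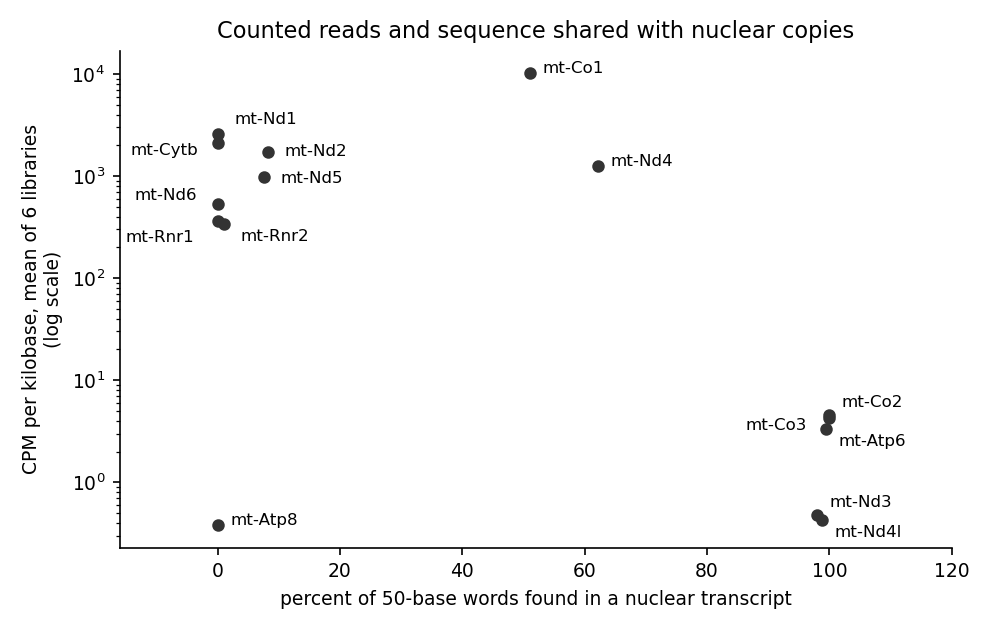
Percent of a gene's 50-base words that also occur in a nuclear transcript (x axis) against the mean CPM per kilobase of the 6 libraries (y axis, log scale), 1 point for each protein or rRNA gene. The 5 genes at 98.0% or more lie low, and so does mt-Atp8 at 0.0%.

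The chromosome 1 copies themselves had few counts. Gm28661 had 82, 110 and 90 counts with NC and 128, 123 and 117 with miR-497, close in size to mt-Co2, its identical partner, at 72, 79 and 82 and at 107, 114 and 105. Gm28438, the copy of mt-Nd3, had 658, 743 and 293 counts with NC and 228, 427 and 403 with miR-497. Gm29216, the copy of the end of mt-Co1, had 365, 406 and 66 counts with NC and 119, 93 and 99 with miR-497. For Gm28438 NC library 3 lay among the miR-497 libraries, and for Gm29216 it lay below all of them. All 7 copies together took 0.00245% to 0.00428% of NC counts and 0.00305% to 0.00308% of miR-497 counts, and the groups overlapped. Reads of a copy and of its mitochondrial partner cannot be told apart where the sequence is identical.

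Mitochondrial genes took a larger share of the counts with miR-497. With NC, libraries 1 to 3 held 2.15%, 2.03% and 2.14%. With miR-497 the values, in the same numbering, were 3.77%, 3.19% and 2.94%. The groups did not overlap, and miR-497 library 1 was the highest. The mean was 2.11% ± 0.0698 with NC and 3.30% ± 0.428 with miR-497 (SD, n = 3), a ratio of 1.57. In bulk RNA, more mitochondrial transcripts per cell and less of the other RNA per cell cannot be told apart. The 6 mRNAs with almost no counts add next to nothing to these totals. Their levels are uncertain, so these are shares of the counted reads only. mt-Co1 made up most of the counted share, at 1.27% ± 0.0687 and 1.85% ± 0.273. Without mt-Co1 the share was 0.837% ± 0.00333 and 1.45% ± 0.156, a ratio of 1.73.

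The classes of gene did not move together. Protein genes went from 2.00% ± 0.0665 to 3.21% ± 0.421 of the library (SD, n = 3). For the rRNA genes it went the other way, from 0.0952% ± 0.00298 to 0.0812% ± 0.00678. Values of the rRNA genes were 0.0980%, 0.0921% and 0.0956% with NC and 0.0885%, 0.0800% and 0.0751% with miR-497, without overlap. Of all mitochondrial counts, rRNA genes thus made up 4.55%, 4.55% and 4.47% with NC and 2.35%, 2.51% and 2.55% with miR-497. The rRNAs are abundant in mitochondria and have at most very short tails, so poly(A) selection can lose them.

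**Figure D3:**
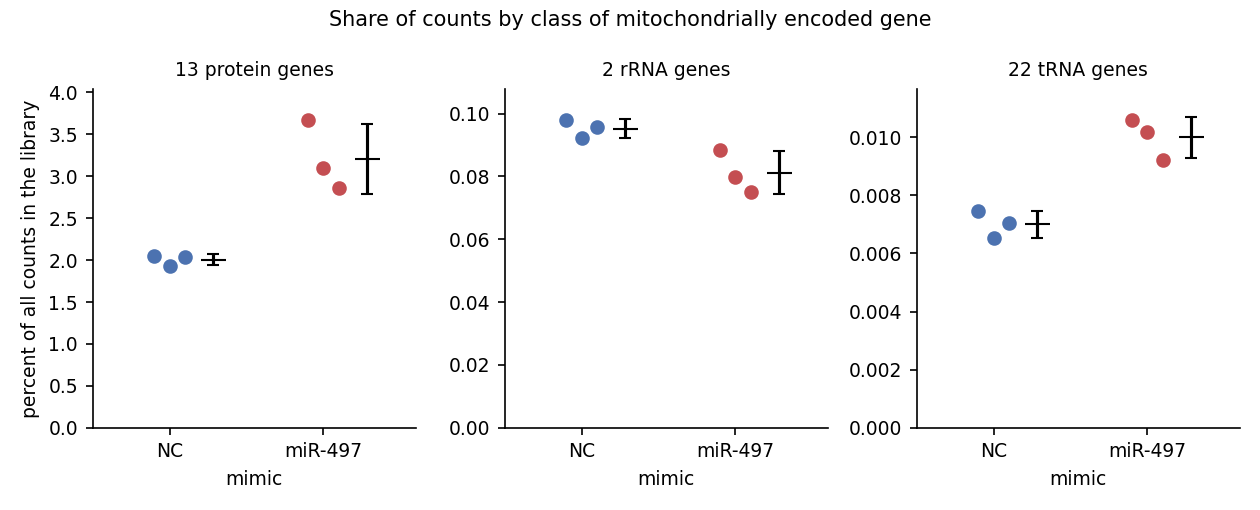
Share of all counts taken by the protein, rRNA and tRNA genes, in percent of each library (y axes start at 0 and differ). Points are libraries and the black marks give mean and SD over 3; protein and tRNA genes lie higher with miR-497 and rRNA genes lower, with no overlap in any class.

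Single genes were then compared. Of the 37 members, 13 passed the filter on low counts: 10 protein genes, both rRNAs and mt-Tp. The other 3 protein genes and 21 tRNA genes were too low in both groups. In edgeR (quasi-likelihood, p adjusted by Benjamini-Hochberg over 14661 genes), 10 of the 13 were higher with miR-497, 1 was lower and 2 did not pass an adjusted p of 0.05. Over all genes tested, 49.8% were called, 23.8% higher and 26.0% lower. The median log2 fold change of the 13 was 0.59, against -0.02 for all genes tested. Groups did not overlap for 11 of the 13, 10 higher and 1 lower, and for 57.4% of all genes tested (27.8% higher and 29.6% lower). With the replicate number as a term, edgeR called 8 members higher and 1 lower, beside 46.0% of all genes (21.7% higher and 24.3% lower). These genes share one genome and its precursor RNAs, so they are not independent of each other.

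Among the complex I genes, mt-Nd4 (chrM:10167-11544) had the largest rise of all members. It lay at 1081, 1028 and 1017 CPM with NC and at 2899, 2285 and 2136 CPM with miR-497. All 3 miR-497 values stood well above the NC values, which were close together. The log2 fold change was 1.23 (± 0.0884 SE, with an adjusted p of 7.3e-09 in edgeR). mt-Nd2 (chrM:3914-4951) lay at 1074, 1097 and 1168 CPM and at 2788, 2404 and 2185 CPM, a log2 fold change of 1.14 (± 0.0773 SE, with an adjusted p of 3.3e-09 in edgeR). mt-Nd5 (chrM:11742-13565) lay at 1190, 1253 and 1182 CPM and at 2641, 2362 and 2159 CPM, with 0.98 (± 0.0701 SE, with an adjusted p of 6.5e-09 in edgeR). These 3 encode subunits of the membrane arm of complex I that are homologous to each other and belong to its proton-pumping part. Their groups were apart, with miR-497 library 1 the highest each time. Of all genes tested, 3.63% were called higher with a fold of at least 2, which mt-Nd4 and mt-Nd2 reached. A fold of at least 1.5 was called for 7 members and for 8.61% of all genes.

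mt-Nd1 (chrM:2751-3707), a subunit next to the quinone site of complex I, changed less. It lay at 1912, 1930 and 2065 CPM with NC and at 3386, 2892 and 2614 CPM with miR-497, a log2 fold change of 0.59 (± 0.0796 SE, with an adjusted p of 1.0e-05 in edgeR). mt-Nd6 (chrM:13552-14070) is the one mRNA made from the other strand. It lay at 187, 259 and 193 CPM with NC and at 347, 332 and 339 CPM with miR-497. NC library 2 stood above the other NC libraries but below all of miR-497. The log2 fold change was 0.67 (± 0.0904 SE, with an adjusted p of 9.7e-06 in edgeR). The strand setting of the counting was not stated, so reads from heavy-strand precursors that run across mt-Nd6 cannot be told apart from its own. It shares 14 bases with mt-Nd5.

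mt-Cytb (chrM:14145-15288), the cytochrome b of complex III, rose from 1710, 1720 and 1843 CPM to 3551, 2919 and 2730 CPM. Its groups were apart, and the log2 fold change was 0.80 (± 0.0817 SE, with an adjusted p of 4.2e-07 in edgeR). mt-Co1, of complex IV, rose from 12952, 11789 and 13143 CPM to 22058, 18108 and 15870 CPM. Its groups were apart too, but the miR-497 libraries differed among themselves more than the NC libraries did. The log2 fold change was 0.56 (± 0.0976 SE, with an adjusted p of 0.00013 in edgeR).

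Of the genes with copies on chromosome 1, mt-Co2 and mt-Co3 of complex IV and mt-Atp6 of the ATP synthase could be tested. mt-Co2 had 2.17, 2.16 and 2.91 CPM with NC and 4.26, 3.59 and 3.45 CPM with miR-497, a log2 fold change of 0.64 (± 0.232 SE, with an adjusted p of 0.030 in edgeR). mt-Co3 had a log2 fold change of 0.54 (± 0.217 SE, with an adjusted p of 0.049 in edgeR), from 87, 92 and 87 counts to 114, 120 and 111. Both calls were lost when certain single libraries were left out, and under some other settings. With all libraries, the adjusted p of mt-Co3 was 0.062 in the DESeq2 Wald test and 0.070 in edgeR with no filter. The edgeR adjusted p of mt-Co2 was 0.091 without NC library 1, 0.106 without NC library 2, 0.106 without miR-497 library 1 and 0.0505 without miR-497 library 2. That of mt-Co3 was under 0.05 when NC library 3 was left out (0.039). It was 0.114 without NC library 1, 0.147 without NC library 2, 0.163 without miR-497 library 1, 0.074 without miR-497 library 2 and 0.058 without miR-497 library 3. mt-Atp6 had 69, 53 and 64 counts with NC and 80, 78 and 63 with miR-497 (log2 fold change 0.41, ± 0.284 SE, with an adjusted p of 0.249 in edgeR). Its groups overlapped, and its log2 fold change was 0.24 without NC library 2 and 0.23 without miR-497 library 1. Whether these reads came from the mitochondrial gene or from chromosome 1 is uncertain.

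The rRNA of the small ribosomal subunit, mt-Rnr1 (chrM:70-1024), was the one member called lower. It lay at 403, 364 and 366 CPM with NC and at 338, 312 and 301 CPM with miR-497, a log2 fold change of -0.25 (± 0.0598 SE, with an adjusted p of 0.0020 in edgeR). The groups did not overlap, and the gap between them was small. mt-Rnr2 (chrM:1094-2675), the rRNA of the large subunit, lay at 560, 548 and 603 CPM and at 569, 497 and 437 CPM, with -0.19 (± 0.0769 SE, with an adjusted p of 0.054 in edgeR). Its groups overlapped through miR-497 library 1. Without that library the log2 fold change was -0.29 (edgeR adjusted p = 0.0026), and without NC library 1 it was -0.21 (edgeR adjusted p = 0.046). It was -0.14 without NC library 3 and -0.10 without miR-497 library 3 (edgeR adjusted p = 0.178 and 0.259). Both lie near the start of the heavy-strand transcript, and mt-Nd1 follows them after a single tRNA gene.

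**Figure D4:**
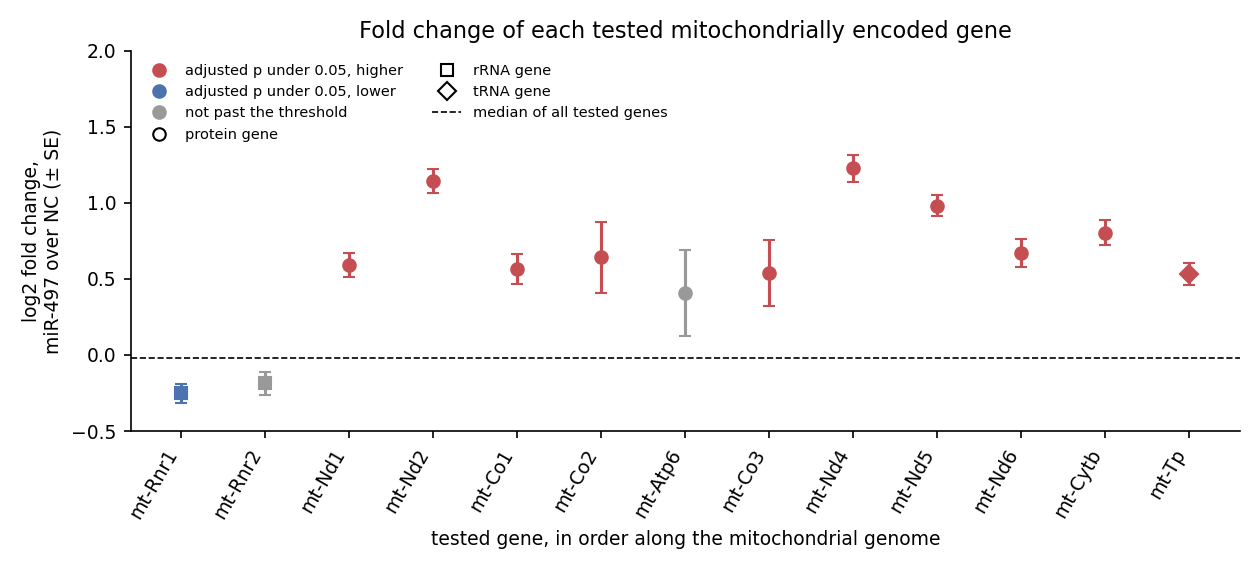
Log2 fold change of miR-497 over NC for each of the 13 tested members, in order along the mitochondrial genome (edgeR; bars are ± SE, the dashed line is the median of all genes tested). The mRNAs and mt-Tp lie between 0.41 and 1.23, and both rRNAs lie below 0.

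Among the tRNA genes, 20 of 22 were listed at 0 in all 6 libraries, and mt-Tc had 0 or 1 count. A count of 0 allows up to 3 counts by counting error alone, which is 0.0822 to 0.119 CPM here. A 0 in this table is not evidence that a gene is silent, because Cox4i1 and Ndufa13, nuclear genes for respiratory subunits that cells in general express, were listed at 0 in all libraries as well. mt-Tp, the gene for the proline tRNA at chrM:15356-15422 on the minus strand, was the exception. It had 2424, 2356 and 2005 counts with NC and 2730, 3272 and 2760 with miR-497. In CPM these were 73.1, 64.5 and 71.2 against 109, 103 and 90.6, without overlap. The log2 fold change was 0.53 (± 0.0717 SE, with an adjusted p of 9.7e-06 in edgeR). Per kilobase mt-Tp came out between the mRNAs, at 1039 ± 67.4 CPM with NC (SD, n = 3). At 67 bases it is far shorter than they are, so this value is not comparable with theirs. With the strand setting not stated, reads from heavy-strand precursors across mt-Tp cannot be told apart from its own. mt-Tp is the last annotated gene before the control region, which holds no annotated gene, and its other neighbour is mt-Tt at 0 counts.

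The balance among the mRNAs differed between the groups. Of the counts of the 13 protein genes, mt-Co1 took 64.4%, 61.8% and 63.7% with NC and 58.5%, 57.8% and 56.6% with miR-497. mt-Nd2 took 5.34%, 5.75% and 5.66% with NC and 7.40%, 7.68% and 7.79% with miR-497. mt-Nd4 took 5.38%, 5.39% and 4.93% with NC and 7.69%, 7.30% and 7.62% with miR-497. In each of these the groups were apart, with mt-Co1 lower and the complex I genes higher. mt-Nd5 went from 6.07% ± 0.438 to 7.42% ± 0.363 and mt-Cytb from 8.82% ± 0.275 to 9.49% ± 0.215 (SD, n = 3), without overlap. mt-Nd1 went from 9.88% ± 0.326 to 9.18% ± 0.174, without overlap on this denominator. mt-Nd6 held 1.07% ± 0.245 and 1.06% ± 0.144, and its groups overlapped. In all, the groups did not overlap for 8 of 13 genes, 4 in each direction, of which mt-Atp8 and mt-Co3 had few counts. With the counts of all mt- genes as denominator this number was 6, because mt-Nd1 and mt-Co3 then overlapped. In CPM, a different measure, groups did not overlap for 57.4% of all genes tested. The shares of the 13 protein genes sum to a whole, so a larger share of one gene makes the others smaller. The 6 mRNAs with almost no counts, whose levels are uncertain, add next to nothing to this whole. The balance is thus that of the counted reads, nearly all from the abundant mRNAs.

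**Figure D5:**
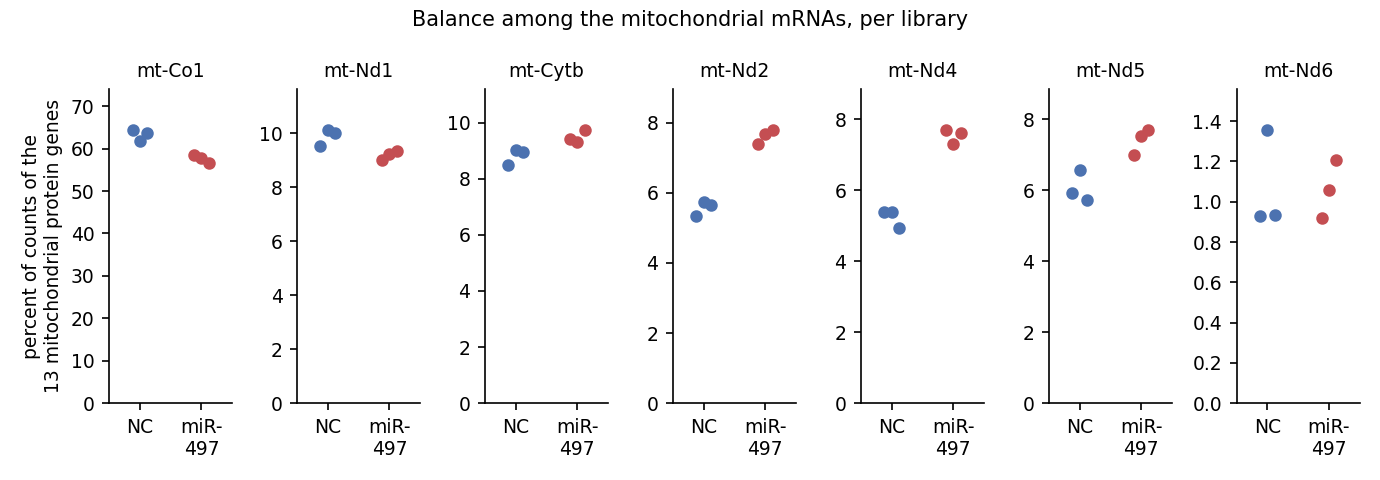
Share of each of the 7 abundant mRNAs in the counts of the 13 mitochondrial protein genes, in percent (y axes start at 0 and differ); each point is 1 library (blue NC, red miR-497). mt-Co1 and mt-Nd1 lie lower with miR-497, mt-Nd2, mt-Nd4, mt-Nd5 and mt-Cytb higher, and mt-Nd6 overlaps.

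The SD of the CPM was larger with miR-497 than with NC in most tested members, mt-Rnr1 and mt-Nd6 being the exceptions. In all 10 tested protein genes the highest CPM of the 6 libraries was that of miR-497 library 1. With that library left out, the log2 fold changes were 0.48 for mt-Nd1, 1.04 for mt-Nd2, 0.43 for mt-Co1, 1.09 for mt-Nd4, 0.90 for mt-Nd5 and 0.68 for mt-Cytb, and the edgeR adjusted p of these 6 was at most 0.00017. The mean share of all members with miR-497 was then 3.06%. Pairs of libraries from one group had a chi-square per degree of freedom of 7.64 to 11.8 over all genes, and pairs from both groups 92.0 to 112. All 6 were kept as separate replicates. Malat1, an RNA retained in the nucleus, varied between libraries (879, 454 and 334 CPM with NC and 496, 566 and 1083 CPM with miR-497). It was highest in miR-497 library 3, which had the lowest mitochondrial share of that group. With NC it went the other way, being highest in library 1, which had the highest mitochondrial share of its group. Neat1, also nuclear, fell from 146 ± 38.6 to 62.4 ± 26.4 CPM (SD, n = 3; edgeR adjusted p = 0.00011). The histone genes Hist1h1c and Hist1h4i fell as well, from 20.7 ± 2.03 to 9.83 ± 0.364 CPM and from 6.62 ± 0.0878 to 3.05 ± 0.703 CPM (SD, n = 3; edgeR adjusted p = 2.3e-07 and 0.00015). Of 12 tested genes in this list of nuclear or tail-less RNAs, 1 was higher and 4 lower, with a median log2 fold change of -0.66. That is 41.7% called, beside 49.8% of all genes tested. The part of RNA quality in the mitochondrial values was not tested.

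Since miR-497 acts through short matches to its seed, the members were searched for them. The mature strand, with its seed in capitals (bases 2 to 8), is shown as RefSeq gives it for GRCm38.p6:
miR-497a-5p: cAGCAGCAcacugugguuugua
None of the 13 mRNAs or 2 rRNAs held TGCTGCT, which pairs with the whole seed, or GCTGCTA, which pairs with all but its last base and adds an A. Only the RNA's own strand was searched, and both words contain GCTGCT. That shorter word occurred 1 time, in mt-Co3. In the first bases of other protein-coding transcripts, cut to the same lengths, 7.64% (for the length of mt-Atp8) to 40.1% (mt-Nd5) held at least 1 of the 7-base words. Base composition was not matched in this comparison, so it cannot tell whether the absence is unusual. The search says only that these letters are not in these sequences.

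Nuclear genes that make and handle mitochondrial RNA were compared as lists. Of 20 genes for transcription and replication of the mitochondrial genome, 3 were higher, 5 lower and 12 did not pass the test, with a median log2 fold change of -0.09. Tfam, which packages the genome and starts its transcription, fell from 71.5 ± 2.45 to 51.9 ± 7.03 CPM (SD, n = 3). That is -0.46 on the log2 scale (± 0.0834 SE, with an adjusted p of 0.00019 in edgeR). Polrmt, the mitochondrial RNA polymerase, fell from 37.8, 37.9 and 37.6 CPM to 34.3, 31.9 and 34.0 CPM (log2 fold change -0.18, ± 0.0683 SE, with an adjusted p of 0.039 in edgeR). Groups were apart for both. Tefm, its elongation factor, fell by 0.37 on the log2 scale and Top3a, a topoisomerase, also by 0.37 (edgeR adjusted p = 0.0032 and 0.00025). Top1mt, the mitochondrial topoisomerase, rose by 0.64 (± 0.0780 SE, with an adjusted p of 3.2e-06 in edgeR).

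Of 30 tested genes for processing, stability and decay of mitochondrial RNA, 9 were higher, 11 lower and 10 did not pass, with a median of -0.05. Lrpprc, which stabilises mitochondrial mRNAs, rose from 120, 111 and 123 CPM to 164, 160 and 160 CPM (log2 fold change 0.46, ± 0.0528 SE, with an adjusted p of 1.8e-06 in edgeR). Its partner Slirp lay at 7.35 ± 0.874 and 9.19 ± 0.834 CPM (SD, n = 3), with 0.32 (± 0.140 SE, with an adjusted p of 0.069 in edgeR). The groups were apart for Lrpprc and overlapped for Slirp. Larger changes were seen in Fastk, Tbrg4 and Ptcd2, which belong to protein families that bind mitochondrial RNA. They fell by 0.68, 0.78 and 0.79 on the log2 scale (edgeR adjusted p = 2.2e-06, 2.1e-09 and 4.3e-06). Mrm3, a methyltransferase of the large mitochondrial rRNA, rose by 0.73 (edgeR adjusted p = 6.4e-06). Fastkd5, Mrm2 and Ddx28 were listed at 0 in all libraries.

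Of 12 regulators of mitochondrial biogenesis, 1 was higher, 6 lower and 5 did not pass, with a median of -0.13. Esrra, a nuclear receptor that turns on respiratory genes, fell from 39.2, 41.4 and 36.7 CPM to 20.7, 21.8 and 19.7 CPM (log2 fold change -0.92, ± 0.0771 SE, with an adjusted p of 4.6e-08 in edgeR). Nrf1, Pprc1 and Ppargc1b fell by 0.55, 0.62 and 0.64 on the log2 scale (edgeR adjusted p = 4.8e-06, 3.8e-07 and 0.0038). Ppargc1a, at 0.277 ± 0.135 and 0.570 ± 0.189 CPM (SD, n = 3), did not pass (edgeR adjusted p = 0.112). The outer membrane, import and matrix list had 5 genes higher and 6 lower of 20, with a median of -0.08. Its count of higher genes fell to 2 without NC library 1, miR-497 library 1 or miR-497 library 2 and to 3 without NC library 2. The count of lower genes fell to 3 without NC library 2, NC library 3 or miR-497 library 3. Hspa9, the matrix chaperone that drives import, fell by 0.66 on the log2 scale and Hspd1, its folding chaperone, by 0.30 (edgeR adjusted p = 1.2e-07 and 0.0020). The import genes Timm23 and Tomm5 went by -0.27 and 0.40 (edgeR adjusted p = 0.00045 and 0.00020). Of 15 genes for mitophagy, fission and fusion, 1 was higher and 4 lower, with a median of -0.07. Bnip3l, a mitophagy receptor, rose by 0.47, while the fusion gene Mfn2 and the fission genes Dnm1l and Mief2 fell by 0.70, 0.51 and 0.74 (edgeR adjusted p at most 1.7e-05 for these 4).

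The nuclear partners in the same complexes had a median log2 fold change of 0.04 over 70 tested genes, with 19 higher, 13 lower and 38 not past the threshold. The median was 0.06 for 35 genes of complex I, -0.08 for 9 of complex III, 0.05 for 9 of complex IV and 0.02 for 16 of the ATP synthase. Ndufa4, which was called lower and has been assigned to both complex I and complex IV, was counted in neither. The largest rise was that of Ndufb9 of complex I, from 39.3, 43.1 and 38.3 CPM to 101, 94.0 and 90.2 CPM, a log2 fold change of 1.24 (± 0.0687 SE, with an adjusted p of 3.1e-10 in edgeR). Ndufa3 and Atpif1, the inhibitor of the ATP synthase, rose by 0.75 and 0.69, and Cox5a of complex IV fell by 0.76 (edgeR adjusted p at most 1.8e-05 for these 3). Shares of genes called were 45.7% in this list, 66.7% in the processing list, 58.3% among the biogenesis regulators, 55.0% in the outer membrane list, 40.0% in the transcription list and 33.3% in the mitophagy list. The share was 49.8% over all genes tested.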

How the data were processed

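The deposited table holds raw counts of reads per Ensembl gene, deposited by the authors as whole numbers that sum to a different total in each library. The submitters' processing notes name STAR 2.5.4b, featureCounts, Subread 1.6.1, edgeR 3.32.1 and GRCm38; strand setting, annotation release and handling of multiply aligned reads are not given in the sources used here. Groups and replicate numbers came from the titles. Symbols came from GENCODE M21 (GRCm38), matching 55141 of 55401 identifiers.

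Differential expression was fitted with edgeR 4.0.16 in R 4.3.3: filterByExpr (minimum count 10, minimum total 15), TMM, a quasi-likelihood F-test with group as the only term, 2-sided, Benjamini-Hochberg over all tested genes, threshold 0.05. The biological coefficient of variation was 8.78%. CPM refers to TMM-scaled library sizes; CPM per kilobase divides by annotated gene length. SE is the log2 fold change divided by the square root of F. The script was tested on simulated data.

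Nuclear copies were found with blastn 2.17.0 (word size 20) against the mitochondrial genes' M21 transcripts placed at their coordinates; words of 50 bases were matched exactly, on both strands. Annotated transcripts only were searched.

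The members and lists were chosen with earlier results of these data known. All members are named; from each list, up to 4 called members with the largest change among those without overlap between groups and with 2 or more in mean log2 CPM, plus Polrmt, Tfam, Lrpprc, Slirp, Malat1 and Neat1. Pdgfra, markers at 0, genes listed at 0, Ppargc1a and the nuclear copies were added after their values were seen.

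Alternatives were other scalings (DESeq2 1.42.0 size factors, upper quartile, library sizes without mt- genes), no filter or a mean count of 50, the DESeq2 Wald test, limma 3.58.1 voom, the replicate block and each library left out.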

Additional observations from a re-analysis of the deposited data

How the results depend on the processing

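Over 14 alternatives for each of the 13 tested members, 165 of 182 pairs had the same sign and call, 13 were no longer past the threshold, 4 newly passed it and 0 changed sign. The 13 were mt-Co2 and mt-Co3, and the 4 were mt-Rnr2. The count of lower members was 1 and became 2 with no filter and with limma voom, and without NC library 1 or miR-497 library 1 (range 1 to 2), through mt-Rnr2; the cause was not tested. The count of higher members, 10, ranged from 8 to 10 over libraries left out. No alternative moved the median of all genes beyond -0.04 to 0.03 on the log2 scale. Same-numbered libraries had correlations of deviations of -0.12, -0.04 and -0.13, and 0 of 6 correlated best with its own number. No pairing by number was thus seen, but 3 libraries per group could miss a weak one. The block moved the number of called genes from 7307 to 6740. With the replicate block mt-Co2 had an edgeR adjusted p of 0.054 and mt-Co3 of 0.088, and 8 members were higher and 1 lower.

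Mean shares with NC were 2.00% for protein genes only, 2.01% without the rRNA genes and 0.837% without mt-Co1, which was 1.45% with miR-497; leaving out mt-Co1 and the word lengths of 30 and 100 bases were chosen after seeing the data. The outer membrane list had 3 genes higher with no filter and 2 with the block, 2 to 5 with single libraries left out, 3 lower with upper-quartile scaling and with the block, and 3 to 8 with single libraries left out. The mitophagy list had 2 genes higher with DESeq2 size factors, upper-quartile scaling, no filter, a mean count of 50 and limma voom, and 1 to 2 with single libraries left out. The biogenesis list had 1 to 2 higher, and the list of nuclear or tail-less RNAs 2 with no filter and 1 to 2 with single libraries left out. The limit that a count of 0 allows covers counting error only.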
